A study of Saccharomyces cerevisiae S288C with 72 samples.

Results

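The genes described here encode the subunits of the RNA polymerases of the budding yeast Saccharomyces cerevisiae. They were taken by name alone, as every entry called RPA, RPB, RPC or RPO followed by a number, which gave 31 of the 5803 entries measured. By their textbook roles, 7 belong to RNA polymerase I, 7 to polymerase II and 9 to polymerase III. A further 2, RPC40 and RPC19, are shared by polymerases I and III, and 5 (RPB5, RPO26, RPB8, RPB10 and RPC10) are common to all 3 enzymes. The last, RPO41, is the mitochondrial RNA polymerase, which meets the name rule but is no part of a nuclear enzyme. RET1, which encodes the second largest subunit of polymerase III, has a name outside the rule and is given separately.

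RNA polymerase I copies the repeated genes for the large ribosomal RNA precursor, polymerase II makes messenger RNA, and polymerase III makes transfer RNA and the smallest ribosomal RNA. The nuclear enzymes are built on one plan, a catalytic cleft formed by a largest and a second largest subunit, an assembly heterodimer, a stalk heterodimer and small subunits used in common. In yeast, transcription by polymerases I and III is tied to growth and nutrients through the TOR and protein kinase A pathways, and it is cut back when ribosome production stops.

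The cultures were of an S288C background and of 3 genotypes, wild type, nde1Δ nde2Δ ndi1Δ and cox4Δ, each given by the labels as 1 strain. NDE1, NDE2 and NDI1 encode the NADH dehydrogenases that pass electrons into the respiratory chain, so the triple deletion is called the NADH dehydrogenase mutant here, and COX4 encodes a subunit of cytochrome c oxidase, its last enzyme. All 3 grew in the same medium, YNB with ammonium and 2% glucose, at 30 °C and 200 rpm, in 500 ml baffled flasks that held 50 ml. RNA was sequenced at 24 matched times from 0 to 58 h, 1 library per strain and time and 72 in all, and times were grouped into an early window (0 to 8 h, n = 7), a middle window (9 to 16 h, n = 8) and a late window (18 to 58 h, n = 9).

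The values are TPM, the usual unit of RNA sequencing, an abundance corrected for transcript length and expressed as a share of all transcripts in a library, here rescaled to a common total of nuclear protein-coding genes. Levels of different genes can therefore be compared, and a fall means a smaller share of the mRNA pool. Sequencing depth is unknown, because TPM keeps no read numbers. The labels do not say that the times came from separate cultures, so the spread between times of a window stands in for replicate error and p-values measure that spread. In the deposited TPM, NDE1 had a median of 516 in wild type and 0.930 in the NADH dehydrogenase mutant, and COX4 a median of 604 in wild type and 1.36 in cox4Δ, over 24 libraries each. NDE2 and NDI1 were likewise at a median of 67.6 and 149.9 TPM in wild type against 0.1, the lowest value in the table, and 0.282 TPM in the mutant that lacks them. Each sample label begins with a code of a letter and a number. The labels do not say what the code means, and it may be a plate row and position. Each strain has code letters of its own, and each changes letter between 13 and 14 h, so that early and late libraries differ in letter. Hence every difference between strains, and every difference between early and late windows, is also one between code letters, and these cannot be told apart. All 31 members passed the filter on low values, with deposited values from 0.458 to 569 TPM, and none was at the floor of 0.1 TPM. Differences are given as log2 of rescaled TPM plus 1, which understates the change of low genes, with the standard error (SE) of a limma fit across 5721 genes. Called genes are those with a Benjamini-Hochberg adjusted p under 0.05 and a difference of 2-fold or more.

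The promoters of several members are shown because genes of polymerases I and III gave their name to a promoter word, PAC, and because the classes of subunits behaved differently below. The windows run from 250 bases before the start codon and on through the first 50 bases of the coding part, on the coding strand, read from the R64 assembly of RefSeq (sacCer3) for all 31 members. Words were searched on both strands: the PAC core GATGAG, the longer PAC word GCGATGAG that contains it, the core AAAATTT of the ribosomal RNA processing element (RRPE), the Reb1 word TTACCCG and the stress response element CCCCT. Because AAAATTTT matches the RRPE core on both strands, 1 stretch can count as 2 matches. Below, capitals mark PAC and RRPE matches only. The first 4 sequences belong to subunits of polymerase I, polymerase III or both, RPA135 (chrXVI:581147-581446, minus strand), RPA49 (chrXIV:182559-182858, minus strand), RPO31 (chrXV:544096-544395, minus strand) and RPC40 (chrXVI:746786-747085, minus strand). RPA14 (chrIV:769275-769574, plus strand) is the polymerase I subunit that departed from its class, and RPO21 (chrIV:210512-210811, minus strand), RPB4 (chrX:150711-151010, plus strand) and RPO26 (chrXVI:911007-911306, plus strand) stand for polymerase II and for the subunits common to all enzymes.
RPA135: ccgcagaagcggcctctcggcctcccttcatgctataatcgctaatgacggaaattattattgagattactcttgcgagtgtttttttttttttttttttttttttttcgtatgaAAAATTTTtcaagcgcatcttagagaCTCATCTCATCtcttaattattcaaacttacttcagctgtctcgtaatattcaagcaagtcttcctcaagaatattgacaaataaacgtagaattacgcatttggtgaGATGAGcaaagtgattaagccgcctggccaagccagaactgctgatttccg
RPA49: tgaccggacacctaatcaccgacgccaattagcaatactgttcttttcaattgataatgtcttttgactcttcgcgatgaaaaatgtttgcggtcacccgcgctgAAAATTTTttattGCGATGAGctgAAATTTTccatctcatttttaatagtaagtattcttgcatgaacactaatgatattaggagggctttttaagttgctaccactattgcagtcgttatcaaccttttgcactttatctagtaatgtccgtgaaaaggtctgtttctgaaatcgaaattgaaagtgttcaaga
RPO31: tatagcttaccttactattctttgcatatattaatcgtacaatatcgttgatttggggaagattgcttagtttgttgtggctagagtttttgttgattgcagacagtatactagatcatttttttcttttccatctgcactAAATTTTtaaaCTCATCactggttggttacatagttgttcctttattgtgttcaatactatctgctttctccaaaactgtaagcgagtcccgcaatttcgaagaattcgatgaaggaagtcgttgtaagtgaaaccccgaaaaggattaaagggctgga
RPC40: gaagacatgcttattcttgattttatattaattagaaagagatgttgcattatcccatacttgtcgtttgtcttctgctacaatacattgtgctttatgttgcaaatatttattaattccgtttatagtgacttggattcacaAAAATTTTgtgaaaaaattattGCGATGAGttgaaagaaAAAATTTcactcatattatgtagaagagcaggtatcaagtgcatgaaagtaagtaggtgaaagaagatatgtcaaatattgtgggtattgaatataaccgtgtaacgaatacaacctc
RPA14: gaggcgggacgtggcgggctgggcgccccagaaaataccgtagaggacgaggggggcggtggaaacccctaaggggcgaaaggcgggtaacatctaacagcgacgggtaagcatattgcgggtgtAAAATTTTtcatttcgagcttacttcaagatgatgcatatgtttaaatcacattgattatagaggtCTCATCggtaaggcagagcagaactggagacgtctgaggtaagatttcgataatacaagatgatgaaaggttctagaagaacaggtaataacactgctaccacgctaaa
RPO21: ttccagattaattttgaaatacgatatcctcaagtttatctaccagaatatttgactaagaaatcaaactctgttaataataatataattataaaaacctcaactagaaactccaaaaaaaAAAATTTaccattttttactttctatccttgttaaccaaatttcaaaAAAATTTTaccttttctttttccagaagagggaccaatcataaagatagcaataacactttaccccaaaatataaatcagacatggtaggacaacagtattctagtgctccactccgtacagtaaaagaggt
RPB4: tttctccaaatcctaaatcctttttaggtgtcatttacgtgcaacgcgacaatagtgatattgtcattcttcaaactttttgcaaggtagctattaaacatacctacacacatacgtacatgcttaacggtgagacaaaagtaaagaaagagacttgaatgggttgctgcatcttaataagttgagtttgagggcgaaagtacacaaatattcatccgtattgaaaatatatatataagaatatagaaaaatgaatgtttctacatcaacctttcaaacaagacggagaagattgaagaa
RPO26: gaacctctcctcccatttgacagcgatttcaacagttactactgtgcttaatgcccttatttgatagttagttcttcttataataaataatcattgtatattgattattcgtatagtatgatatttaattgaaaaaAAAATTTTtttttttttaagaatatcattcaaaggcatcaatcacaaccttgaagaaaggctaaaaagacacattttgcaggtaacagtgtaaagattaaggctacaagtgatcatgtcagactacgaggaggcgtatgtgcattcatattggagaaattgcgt

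The PAC core stood in 16 of 31 member promoters, against 20.4% of 6007 promoters searched. It was found in 6 of 7 polymerase I promoters, in all but RPA12, and in 7 of 9 polymerase III promoters, in all but RPC17 and RPC11. Both RPC40 and RPC19 held it, whereas it was in 0 of 5 promoters of subunits common to all enzymes and in 1 of 7 of polymerase II. That 1 was RPB2, where the match lies inside the coding part. The matches that end before the start codon numbered 18 in 15 members and lay 59 to 245 bases before it, with a median of 116. The RPA135 and RPC37 promoters have a further match that spans the start codon itself.

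The RRPE core did not follow the same division. It was in 6 of 7 polymerase I, 2 of 7 polymerase II, 7 of 9 polymerase III and 4 of 5 commonly shared promoters, and in 23.2% of all promoters. PAC core and RRPE core occurred together in 14 of 31 members, namely 6 of 7 polymerase I, 6 of 9 polymerase III and 2 of 2 shared by I and III. The same pair was in 0 of 7 polymerase II promoters, in 0 of 5 of the commonly shared ones and in 7.74% of all. The longer PAC word was in 6 members, RPA49, RPC82, RPC31, RPC25, RPC40 and RPC19, against 3.93% of promoters. The stress response element was in 7 of 31 members against 21.6% of promoters, with 3 matches in RPA14, and the Reb1 word in 4 of 31 against 7.08%, with 2 matches in RPA14. These matches describe letters in a window and say nothing of what binds there.

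During early growth of wild type the subunit mRNAs spanned a wide range of levels. The largest subunits were low, with a median over 7 times of 14.3 rescaled TPM for RPO31 (polymerase III), 17.003 for RPA190 (polymerase I) and 29.3 for RPO21 (polymerase II, the subunit with the repeated C-terminal domain). RPO31 spanned 10.8 to 18.8, RPA190 13.4 to 19.8 and RPO21 19.1 to 36.3 rescaled TPM, so the first 2 overlap along most of their range and RPO21 overlaps RPA190 only at its lowest time. Of the small subunits used by all enzymes, 4 were the most abundant members, with medians of 342 for RPB8, 339 for RPC10, 273 for RPO26 and 270 rescaled TPM for RPB10, and RPB5 had 89.1. The lowest member was RPO41, at a median of 7.70 rescaled TPM. The subunits of one enzyme, which occur once each in the complex, thus differed in mRNA level by more than the spread over times, as RPA190 and RPA14 did (13.4 to 19.8 against 83.0 to 155 rescaled TPM).

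**Figure D1:**
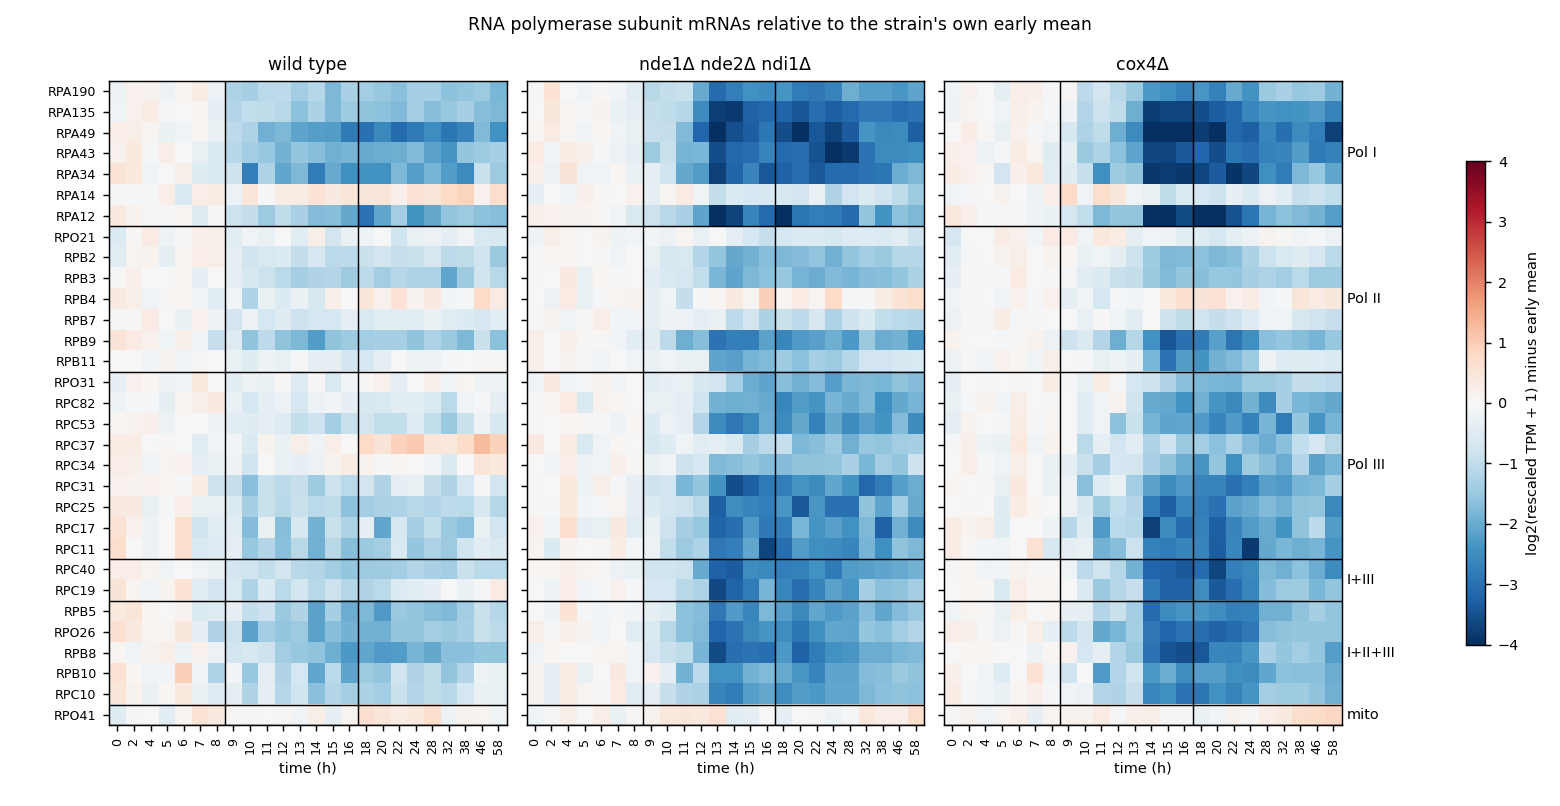
Log2 level of each of the 31 members at each of 24 times, in columns for the 3 strains with members ordered by enzyme. Each value is relative to the early mean of that member in the same strain, so colours do not compare levels between strains. Most members were low after 8 h in every strain, whereas RPA14, RPC37, RPB4, RPO41 and, barely, RPC34 (15.7 against 15.1 rescaled TPM) had a late wild-type mean above their early one, none of them called. In the mutants the polymerase III members were low from 14 h on.

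In wild type, most polymerase I subunits and most of those common to all enzymes fell between the early and the late window, and most polymerase II and III subunits were not called. Of the polymerase II subunits 5 of 7 had an adjusted p under 0.05, and RPB2, RPB7 and RPO21 among them missed the 2-fold minimum. Of 31 members limma called 16 lower, against 14.7% called lower among all genes tested. It called 0 higher, against 18.4% of all genes, beside 2 at an unadjusted p under 0.05 on either scaling (36.9% of all genes, or 36.1% by the median of ratios). The 16 were 6 of 7 polymerase I subunits, 2 of 7 polymerase II, 3 of 9 polymerase III, RPC40, and 4 of the 5 subunits in all enzymes. The median log2 change was -1.84 for polymerase I, -0.47 for polymerase II, -0.68 for polymerase III, -0.82 for the pair shared by I and III and -1.45 for the commonly shared subunits, against 0.05 over all genes. Members are not replicates, so these medians are given without a test.

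The polymerase I core fell several-fold. RPA190, the largest subunit (YOR341W, chromosome XV 960987 to 965981), had a lowest, median and highest value of 13.4, 17.003 and 19.8 rescaled TPM early, 3.94, 6.13 and 7.26 in the middle window and 3.82, 5.00 and 5.79 late. No late time reached the lowest early one, and the log2 change was -1.53 ± 0.25 (SE; limma adjusted p = 3.6e-07). RPA135, the second largest subunit (YPR010C, chromosome XVI 577585 to 581196), went from 28.8, 37.0 and 44.8 to 9.67, 10.9 and 13.7 rescaled TPM, a log2 change of -1.61 ± 0.34 (adjusted p = 3.4e-05). The drop was already present in the middle window, at 9.63, 15.1 and 17.8 rescaled TPM.

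RPA49 and RPA34, the heterodimer that aids initiation and elongation by polymerase I, changed most. RPA49 (YNL248C, chromosome XIV 181361 to 182608) had 37.7, 48.3 and 54.9 rescaled TPM early and 4.49, 6.28 and 12.7 late, the largest fall of any member at -2.64 ± 0.37 (adjusted p = 7.9e-09). RPA34 had 33.3, 50.6 and 73.1 early and 7.64, 10.0 and 26.4 late (-1.98 ± 0.40, adjusted p = 1.6e-05). RPA12, which stimulates cleavage of the nascent RNA, had 61.6, 84.6 and 112 early and 10.4, 25.8 and 33.3 late (-1.91 ± 0.44, adjusted p = 0.00014). Early and late values of these 3 genes did not overlap.

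RPA14 was the exception within polymerase I. It forms the stalk together with RPA43, yet the mRNAs of these partners went apart. RPA14 (YDR156W, chromosome IV 769525 to 769938) had 83.0, 123 and 155 rescaled TPM early, 108, 158 and 184 in the middle window and 141, 178 and 235 late, a log2 difference of 0.53 ± 0.18 (adjusted p = 0.0074) that is below 2-fold and so not called. RPA43 had 15.7, 23.6 and 31.0 early and 3.76, 5.31 and 8.55 late (-1.84 ± 0.30, adjusted p = 3.5e-07). The ratio of RPA14 to RPA43 within a library accordingly had a median of 5.36 early and 33.3 late, the late values lying between 18.1 and 58.9.

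Among polymerase II subunits, RPB3 and RPB9 were called lower. RPB9, which acts in start site selection and fidelity, had 56.7, 123 and 155 rescaled TPM early and 30.5, 41.4 and 58.9 late (-1.41 ± 0.28, adjusted p = 1.7e-05), so that its highest late time lay just above its lowest early one. RPB3, one partner of the assembly heterodimer, changed by -1.27 ± 0.19 (adjusted p = 3e-08), whereas its partner RPB11 had a difference of -0.17. RPO21 (YDL140C, chromosome IV 205360 to 210561) had 19.1, 29.3 and 36.3 early and 16.1, 22.9 and 28.7 late, overlapping values with a difference of -0.37 ± 0.15 (adjusted p = 0.023, below 2-fold). RPB2, the second largest subunit, had 22.0, 33.3 and 37.2 early and 10.4, 16.0 and 19.2 late, which do not overlap, and its difference of -0.94 ± 0.21 (adjusted p = 0.00012) stayed just under 2-fold. The stalk subunits RPB4 and RPB7 had differences of 0.30 ± 0.18 (adjusted p = 0.13) and -0.47 ± 0.14 (adjusted p = 0.003), neither called.

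No difference between early and late wild type was called for the largest subunit of polymerase III. RPO31 (YOR116C, chromosome XV 539763 to 544145) had 10.8, 14.3 and 18.8 rescaled TPM early, 8.78, 11.8 and 14.6 in the middle window and 10.6, 13.8 and 16.3 late, with a difference of -0.05 ± 0.20 (adjusted p = 0.86). The 3 members called lower were the stalk pair RPC25 (-1.12 ± 0.31, adjusted p = 0.0013) and RPC17 (-1.07 ± 0.35, adjusted p = 0.0056), and RPC11 (-1.06 ± 0.33, adjusted p = 0.0042), which takes part in RNA cleavage and termination. RPC11 had 75.0, 113 and 189 early and 38.7, 48.7 and 86.1 late, so the windows overlap at their edges. RPC37, which acts with RPC53 in termination and reinitiation, had 13.7, 19.1 and 23.9 early and 26.1, 33.9 and 47.5 late. It was the only member whose late values all lay above its early ones, and the share of all genes that did so is not given. The difference of RPC37, 0.79 ± 0.17 (adjusted p = 6.9e-05), was below 2-fold. RPC53 did not share this course, and the ratio of RPC37 to RPC53 had a median of 1.04 early and 3.17 late.

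**Figure D2:**
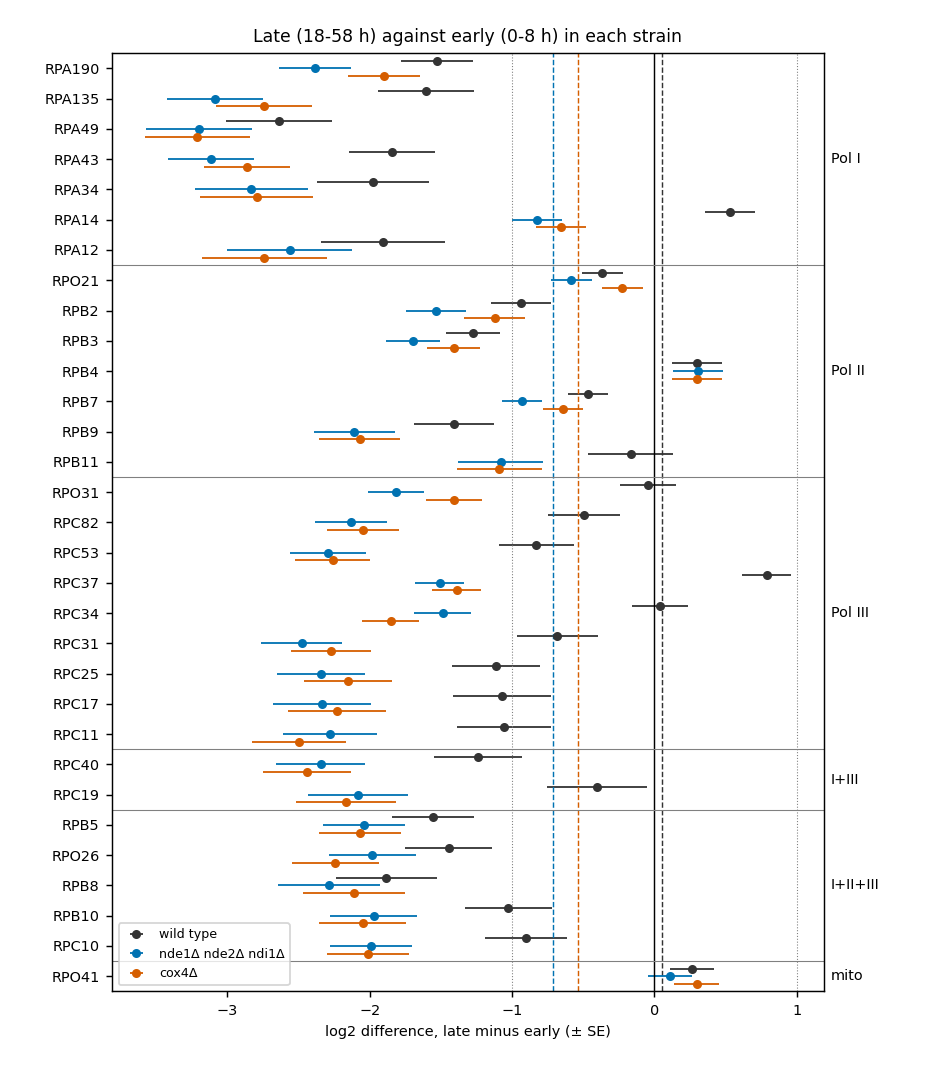
Log2 difference between late and early windows for each member in each strain, with bars of ± 1 SE and members grouped by enzyme. Polymerase I members other than RPA14 lie between -1.53 and -2.64 in wild type, and RPO31 lies near 0 in wild type but at -1.82 and -1.41 in the mutants.

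Most subunits used by more than one enzyme fell in wild type. RPC40, which pairs with RPC19 in the assembly heterodimer, had 69.0, 82.7 and 99.5 rescaled TPM early and 29.8, 33.5 and 44.2 late (-1.24 ± 0.31, adjusted p = 0.00043). RPC19 had 51.6, 93.3 and 129 early and 37.1, 69.1 and 110 late and was not called (-0.40 ± 0.35, adjusted p = 0.31). The windows of RPC40 are apart and those of RPC19 overlap.

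Of the subunits common to all enzymes, RPB8 fell most, from 279, 342 and 383 to 67.6, 88.2 and 112 rescaled TPM (-1.88 ± 0.36, adjusted p = 6.2e-06). RPB5 had 56.0, 89.1 and 117 early and 16.5, 27.4 and 45.0 late (-1.56 ± 0.29, adjusted p = 4.2e-06). Neither gene had a late value within its early range. RPO26, the subunit whose gene carries an intron, had 110, 273 and 394 early and 67.6, 92.3 and 139 late (-1.45 ± 0.31, adjusted p = 4.1e-05). RPB10 had 124, 270 and 569.7 early and 97.8, 128 and 254 late (-1.03 ± 0.31, adjusted p = 0.0026). Both overlapped between windows. RPC10 had 228, 339 and 449 early and 124, 160.4 and 269 late and missed the 2-fold minimum (-0.90 ± 0.29, adjusted p = 0.0052). Early and late values of RPO41, in contrast, were 5.06, 7.70 and 11.4 against 6.43, 9.36 and 12.8 (0.26 ± 0.16, adjusted p = 0.13).

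The wild-type decline was in place by 9 to 16 h. Against the early window 18 members were called lower in the middle window and 0 higher, against 11.0% called lower and 12.3% higher of all genes. With a pseudocount of 5 the count lower was 11, and the share of all genes at that setting is not given. The 18 were 6 polymerase I subunits, 2 of polymerase II, 4 of polymerase III, RPC40 and all 5 commonly shared ones. The 3 lowest were RPA34 at -1.99, RPA49 at -1.92 and RPO26 at -1.63, while RPO21 and RPO31 differed by -0.27 and -0.25 and were not called. Over the 24 wild-type times, 18 members had their lowest value in the middle window and 11 in the late one. The step between 9 and 10 h took 7 members down by 2-fold or more, and 7.08% of all genes.

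Some short genes alternated between adjacent times in this stretch. RPB10, the shortest of them together with RPC10, stood at 274, 103, 221, 128, 181, 68.3 and 138 rescaled TPM at 9, 10, 11, 12, 13, 14 and 15 h in wild type. Over all genes the slope of the deviation in log2 TPM against log2 gene length alternated at the same times, at -0.05, 0.12, -0.01, 0.06, -0.05, 0.15 and -0.08. The part of this in the level of single genes was not tested. With the length trend removed from each library, an alternative chosen after seeing the data, 18 members were called lower in the wild-type middle window, the same number as reported.

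**Figure D3:**
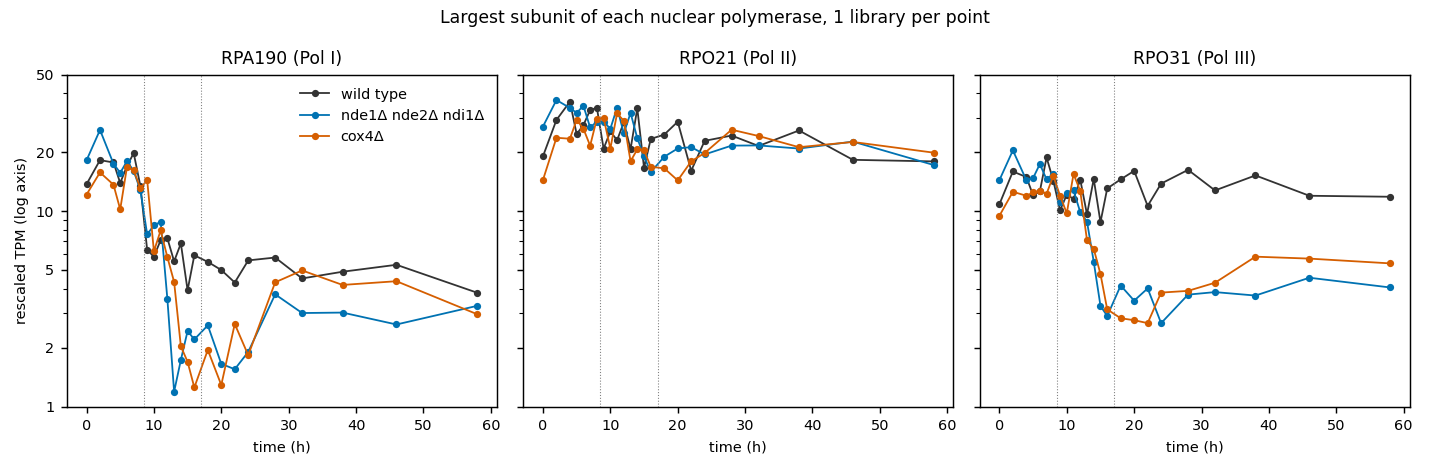
Rescaled TPM on a log axis against time for the largest subunits RPA190, RPO21 and RPO31, 1 line per strain with each point 1 library and dotted lines between windows. RPA190 declined in all strains, and RPO31 separated wild type from both mutants from 14 h on. RPO21 lay within 14.4 to 37.0 rescaled TPM in early and late windows. In the NADH dehydrogenase mutant all late values of RPO21 were below its early ones.

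In both respiratory mutants nearly the whole set fell between early and late windows, polymerase III included. In the NADH dehydrogenase mutant 26 of 31 members fell, against 40.0% of all genes, and in cox4Δ also 26, against 34.3%. In each mutant these were 6 of 7 polymerase I, 4 of 7 polymerase II (RPB2, RPB3, RPB9 and RPB11), 9 of 9 polymerase III, and all 7 subunits shared between enzymes. Not called were RPA14, RPO21, RPB4, RPB7 and RPO41. Even so, all late values lay below the early ones for RPO21 and RPB7 in the NADH dehydrogenase mutant and for RPA14 in cox4Δ. The class medians in the NADH dehydrogenase mutant were -2.83 for polymerase I, -1.08 for polymerase II, -2.28 for polymerase III and -1.99 for the commonly shared subunits, beside -0.71 over all genes. In cox4Δ they were -2.74, -1.09, -2.15 and -2.07, beside -0.54 over all genes. Scaled by the median of gene ratios, 22 and 21 members fell, against 22.0% and 21.7% of all genes.

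The largest falls were again in polymerase I. In the NADH dehydrogenase mutant RPA49 (-3.20 ± 0.37, adjusted p = 1.6e-11), RPA43 (-3.12 ± 0.30, adjusted p = 6.1e-14) and RPA135 (-3.09 ± 0.34, adjusted p = 2.2e-12) were lowest. RPA43 reached 0.462 rescaled TPM at its lowest late time, against an early range of 18.6 to 31.3. In cox4Δ the 3 lowest were RPA49 (-3.21 ± 0.37), RPA43 (-2.86 ± 0.30) and RPA34 (-2.79 ± 0.40), with adjusted p of 1.8e-11, 1.1e-12 and 5.7e-09. RPA190 fell by 2.38 and 1.90 on the log2 scale in the 2 mutants.

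RPB4 did not follow. Its late values of 118, 153 and 218 rescaled TPM in the NADH dehydrogenase mutant and 132, 178 and 213 in cox4Δ overlapped the early ones (104, 124 and 156, and 127, 139 and 160), with a log2 difference of 0.30 in each strain, wild type included. Its stalk partner RPB7 had -0.93 and -0.64 in the mutants and was not called either. The ratio of RPB4 to RPB7 had medians of 0.639 early and 1.47 late in the NADH dehydrogenase mutant, 0.847 and 1.81 in cox4Δ, and 0.725 and 1.07 in wild type. The polymerase III stalk ratio, RPC17 to RPC25, had early and late medians of 0.723 and 0.765 in wild type, 0.601 and 0.529 in the NADH dehydrogenase mutant and 0.712 and 0.584 in cox4Δ.

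Direct comparison with wild type separated the enzymes further. In the late window 9 of 9 member subunits of polymerase III were called lower in the NADH dehydrogenase mutant and 7 of 9 in cox4Δ, and no polymerase II subunit in either. The mutants share the wild-type libraries as controls, so their values are set side by side and not counted as independent. In the NADH dehydrogenase mutant 16 of 31 members were called lower, against 29.4% of all genes, and 0 higher, against 2.71%. They were 9 of 9 polymerase III subunits, 4 of 7 polymerase I (RPA135, RPA43, RPA34 and RPA14), RPC19, RPB10 and RPC10. In cox4Δ 11 members were lower, against 26.3% of all genes, and 0 higher, against 2.46%. The 11 were 7 of 9 polymerase III subunits, RPA135, RPA14, RPC40 and RPC19.

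Class medians against wild type were -1.42 and -1.43 for polymerase III in the NADH dehydrogenase mutant and cox4Δ, -1.05 and -0.74 for polymerase I, -0.42 and -0.29 for polymerase II, and -0.54 and -0.49 for the commonly shared subunits. The median of all genes was itself -0.65 and -0.61 on this scale. When libraries were scaled by the median of gene ratios, an alternative that moved the median of all genes to -0.04 and -0.03, the polymerase III medians were -0.85 and -0.88, those of polymerase I -0.46 and -0.20, and those of polymerase II 0.22 and 0.34. On that scale 5 members stayed called in the NADH dehydrogenase mutant (RPO31, RPC82, RPC37, RPC31 and RPC19, against 7.42% of all genes) and 3 in cox4Δ (RPO31, RPC82 and RPC37, against 7.35%).

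RPC37 had the lowest log2 difference of any member in both mutants. Its late values were 26.1, 33.9 and 47.5 rescaled TPM in wild type, 4.89, 6.73 and 10.6 in the NADH dehydrogenase mutant and 5.07, 8.22 and 14.0 in cox4Δ. The wild-type values do not overlap those of either mutant, at 9 of 9 times it was lower, and the log2 differences were -2.15 ± 0.14 (adjusted p = 2.2e-18) and -1.91 ± 0.14 (adjusted p = 1.5e-16).

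RPO31 in late wild type was also clear of both mutants, at 10.6, 13.8 and 16.3 rescaled TPM against 2.67, 3.85 and 4.56 and against 2.67, 3.91 and 5.85. It differed by -1.61 ± 0.15 (adjusted p = 3.5e-13) and -1.54 ± 0.15 (adjusted p = 1.2e-12). RPC82, of the trio with RPC34 and RPC31 that opens promoters, had 5.07, 8.41 and 11.3 in wild type against 0.928, 1.86 and 2.42 and against 0.841, 1.89 and 3.34. Its differences were -1.77 ± 0.20 (adjusted p = 4.9e-11) and -1.79 ± 0.20 (adjusted p = 4.2e-11). The remaining polymerase III members differed by -1.13 to -1.60 in the NADH dehydrogenase mutant. In cox4Δ RPC25 (-0.79) and RPC17 (-0.87) missed the 2-fold minimum.

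RPC19, shared with polymerase I, had 37.1, 69.1 and 110 rescaled TPM late in wild type against 9.54, 18.4 and 33.2 in the NADH dehydrogenase mutant (-1.71 ± 0.24, adjusted p = 2.4e-08) and 9.26, 29.1 and 38.2 in cox4Δ (-1.50 ± 0.24, adjusted p = 4.4e-07). Its partner RPC40, at 29.8, 33.5 and 44.2 in wild type, had 11.9, 18.7 and 23.6 (-0.97 ± 0.19, adjusted p = 1.7e-05, below 2-fold) and 6.11, 14.8 and 28.1 (-1.08 ± 0.19, adjusted p = 2.9e-06). RPC40 did not overlap in either comparison, and RPC19 overlapped only in cox4Δ.

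Within polymerase I, RPA14 and RPA135 were called lower in both mutants, and RPA190, the largest subunit, was not. RPA190 is a low gene, whose change is understated on the scale with 1 added. RPA14 had 141, 178 and 235 rescaled TPM in late wild type against 47.6, 77.6 and 111 in the NADH dehydrogenase mutant (-1.29 ± 0.16, adjusted p = 6e-10) and 52.1, 64.6 and 88.3 in cox4Δ (-1.46 ± 0.16, adjusted p = 2.3e-11). RPA190 had 1.55, 2.63 and 3.75 and 1.29, 2.97 and 4.97 in the mutants against 3.82, 5.00 and 5.79, with differences of -0.75 ± 0.18 (adjusted p = 0.00017) and -0.58 ± 0.18 (adjusted p = 0.003), both below 2-fold. RPA135 was called in both, with 3.07, 4.29 and 5.11 and 2.18, 5.08 and 6.77 against 9.67, 10.9 and 13.7 (-1.25 ± 0.22, adjusted p = 1.5e-06, and -1.14 ± 0.22, adjusted p = 7.8e-06).

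No polymerase II subunit reached the call against late wild type, and RPB11 came nearest (-0.99 and -0.92). RPO21 had 17.2, 20.9 and 22.7 and 14.4, 19.9 and 26.1 rescaled TPM in the mutants against 16.1, 22.9 and 28.7 (-0.09 ± 0.12, adjusted p = 0.47, and -0.13 ± 0.12, adjusted p = 0.34). RPB2 had 8.22, 10.8 and 14.9 and 7.36, 12.6 and 19.7 against 10.4, 16.0 and 19.2 (-0.45 ± 0.14 and -0.32 ± 0.14). RPB9 had 18.3, 25.1 and 41.5 and 15.1, 32.7 and 41.4 against 30.5, 41.4 and 58.9 (-0.59 ± 0.19 and -0.52 ± 0.19). All 3 overlapped wild type. Scaled by the median of ratios, the differences of 6 of the 7 polymerase II subunits, all but RPB11, were above 0 in both mutants.

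All 5 commonly shared subunits overlapped late wild type in cox4Δ, and 3 of them did in the NADH dehydrogenase mutant. No share of all genes that overlap is given, so these counts cannot be set against other genes. RPB5 (13.8, 19.7 and 29.8 in the NADH dehydrogenase mutant, 14.2, 26.2 and 40.1 in cox4Δ), RPO26 (33.9, 59.7 and 113, and 32.9, 96.7 and 109) and RPB8 (34.8, 67.4 and 97.6, and 28.0, 65.3 and 123 rescaled TPM) overlapped wild type and were not called, with differences from -0.24 to -0.54. RPB10 had 42.1, 65.3 and 94.2 in the NADH dehydrogenase mutant (-1.08 ± 0.22, adjusted p = 1.7e-05) and 60.9, 82.7 and 112 in cox4Δ (-0.76 ± 0.22, not called). RPC10 had 55.7, 74.7 and 102 (-1.12 ± 0.18, adjusted p = 2.7e-07) and 48.1, 94.7 and 137 (-0.96 ± 0.18, not called). The NADH dehydrogenase values of RPB10 and RPC10 all lay below those of late wild type. RPO41 had 5.12, 6.90 and 11.9 and 4.71, 7.54 and 11.7 rescaled TPM and was not called in either mutant (-0.25 and -0.23).

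**Figure D4:**
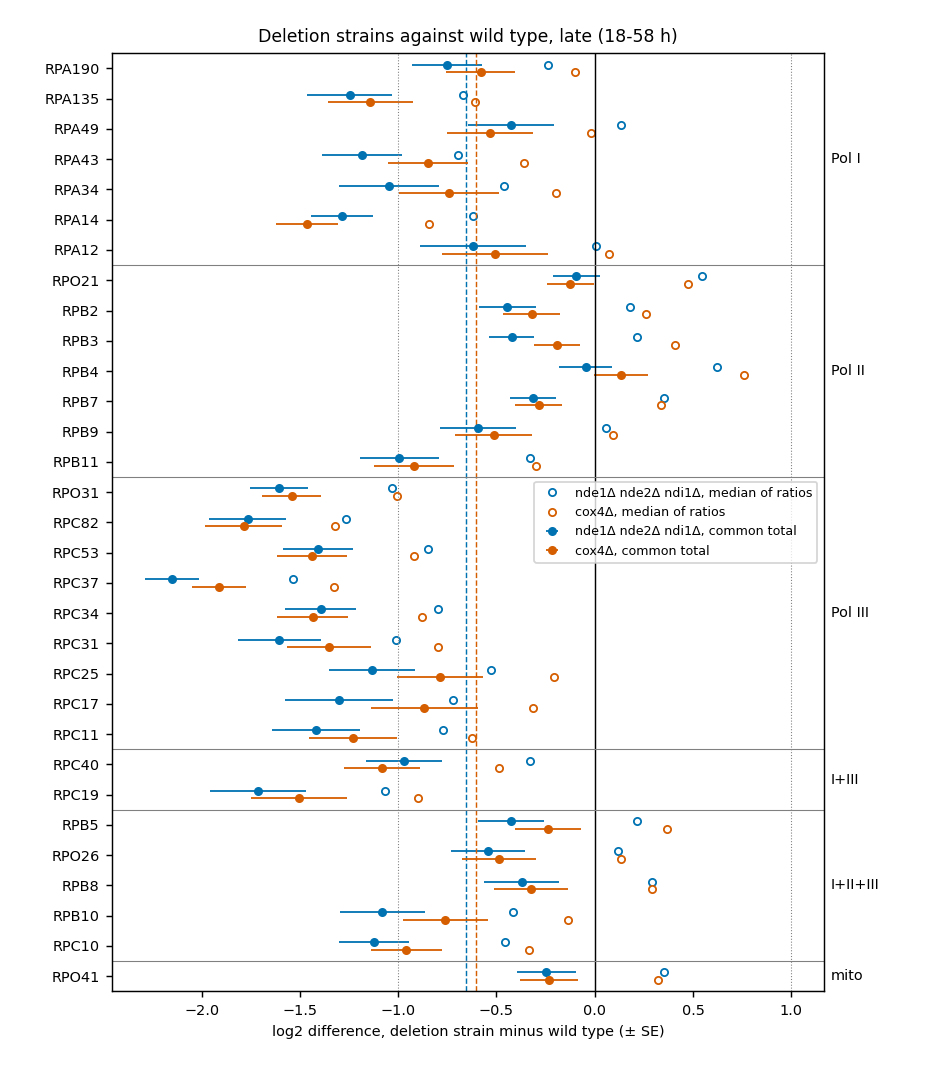
Late log2 difference of each member from wild type in each mutant, filled points with ± 1 SE for the common total and open points for scaling by the median of gene ratios, with dashed lines at the medians of all genes (-0.65 and -0.61). Polymerase III members and RPC19 lie left of the dashed lines, and polymerase II members other than RPB11 lie right of them. On the open points 6 of 7 polymerase II members lie above 0.

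No member was called between the mutants themselves. Between cox4Δ and the NADH dehydrogenase mutant in the late window 0 of 31 members were called by limma, beside 0.0874% of all genes lower and 0.21% higher, and the differences lay between -0.18 and 0.43. At an unadjusted p under 0.05 the count was also 0, or 1 when scaled by the median of ratios. In the early window 0 members were called for either mutant against wild type (0.0524% and 0.297% of all genes lower), and values of all 31 overlapped. At an unadjusted p under 0.05, 0 members differed in the NADH dehydrogenase mutant and 1 in cox4Δ, with 0 and 2 when scaled by the median of ratios. For these late and early comparisons no share of all genes at the unadjusted threshold is given, nor a share of genes whose values overlap. These counts thus cannot be set against other genes. In the middle window 1 member, RPC19, was called lower in the NADH dehydrogenase mutant (-1.02, beside 3.67% of all genes). That call was lost when scaled by the median of ratios, with a pseudocount of 5, and without 13, 14 or 15 h, and the count ranged from 0 to 6 when each time was left out in turn. In cox4Δ limma called 0 members lower (2.32% of all genes). At an unadjusted p under 0.05, 13 were lower there, beside 39.9% of all genes, and 7 when scaled by the median of ratios, beside 17.5%.

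The test of the difference between changes bears on whether the late fall was larger in the mutants. It passed for 15 members in the NADH dehydrogenase mutant, against 33.5% of all genes, and for 16 in cox4Δ, against 26.1%. All 9 polymerase III members were among them in each mutant. RPC37 had the largest excess fall, at -2.30 and -2.18, followed in the NADH dehydrogenase mutant by RPC31 (-1.79) and RPO31 (-1.77) and in cox4Δ by RPC34 (-1.89) and RPC19 (-1.77). RPA135, RPA43 and RPA14 passed in both mutants and no polymerase II subunit did in either. Scaled by the median of ratios, 4 and 5 members passed, against 8.43% and 8.2% of genes.

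The relation between enzymes can be read within each library from the largest subunits, where scaling between libraries cancels. The ratio of RPO31 to RPO21 had a median of 0.486 early and 0.604 late in wild type, late values lying between 0.560 and 0.667. In the NADH dehydrogenase mutant it went from 0.532 to 0.178, with late values from 0.137 to 0.236, and in cox4Δ from 0.511 to 0.193, with late values from 0.149 to 0.275. No late mutant library reached the lowest late wild-type ratio. The ratio of RPA190 to RPO21 declined in all strains, from 0.602 to 0.223 in wild type, from 0.519 to 0.137 in the NADH dehydrogenase mutant and from 0.636 to 0.149 in cox4Δ. The late ranges of this second ratio, 0.174 to 0.290 in wild type against 0.0730 to 0.190 and 0.0897 to 0.205, overlapped.

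**Figure D5:**
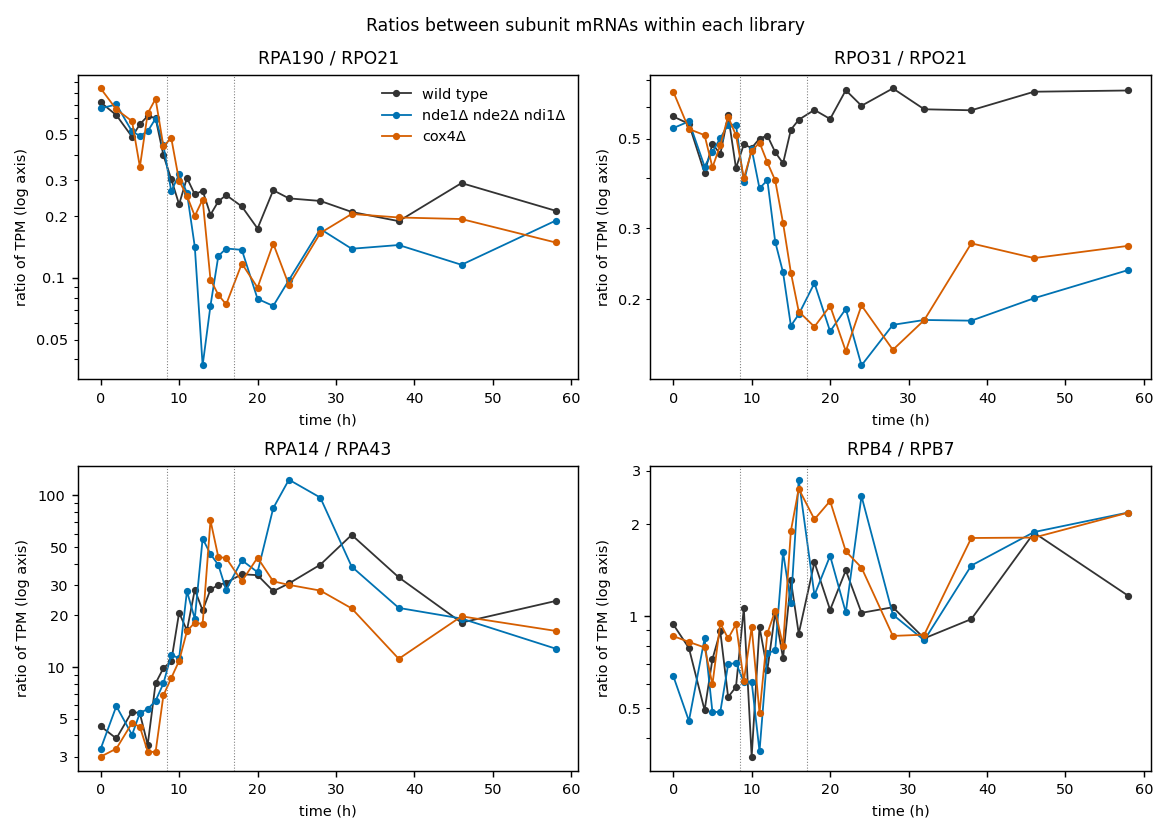
Ratios of TPM between pairs of subunits in each library on log axes against time, 1 line per strain. RPO31 to RPO21 stays between 0.411 and 0.667 in early and late wild type and lies at or below 0.275 in late mutant libraries. RPA14 to RPA43 rises unevenly to 58.9 at 32 h in wild type, 124 at 24 h in the NADH dehydrogenase mutant and 71.5 at 14 h in cox4Δ. It then stands at 24.3, 12.8 and 16.2 at 58 h. Each peak rests on 1 library and a low RPA43 value. In the NADH dehydrogenase mutant the ratio was 35.7 at 20 h and 38.5 at 32 h.

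Summed over subunits, the polymerase II class held a mean of 24.9% of member TPM early and 33.9% late in wild type, 25.6% and 44.7% in the NADH dehydrogenase mutant and 23.2% and 44.9% in cox4Δ. The polymerase III class held 10.1% and 11.4% in wild type, 9.97% and 6.30% in the NADH dehydrogenase mutant and 10.8% and 6.78% in cox4Δ. The share of polymerase I was 13.6% and 15.4% in wild type, most of it RPA14 in the late window, and 14.1% and 12.0%, and 12.7% and 10.5%, in the mutants. The subunits of all enzymes went from 45.2% to 32.6% in wild type, and from 44.0% to 32.2% and 46.8% to 33.2% in the mutants.

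In the mutants many members dropped together in 1 step, after an earlier decline. Summed over members, the NADH dehydrogenase mutant had 2508 rescaled TPM at 8 h, 1332 at 12 h and 740 at 13 h. The sum in cox4Δ was 2940 at 8 h, 1598 at 13 h and 842 at 14 h. Between 12 and 13 h in the NADH dehydrogenase mutant 21 of 31 members dropped by 2-fold or more, against 22.7% of all genes. Drops were counted on log2 of rescaled TPM plus 1. In rescaled TPM without 1 added, the largest drops were those of RPC19, from 35.4 to 6.05, of RPC25, 5.44-fold, and of RPA43, 5.11-fold. RPO21 (25.0 and 31.8), RPB4 (121.5 and 132), RPB7 (160 and 171), RPC37 (15.5 and 15.8) and RPO41 (9.52 and 10.8 rescaled TPM) were not lower at 13 h. In cox4Δ the step lay between 13 and 14 h, where 18 of 31 members dropped by 2-fold or more, against 21.3% of all genes. RPA190 and RPC53 fell 2.13-fold and 2.17-fold in rescaled TPM there but missed the count on the scale with 1 added. RPA12 went from 36.0 to 2.36, RPC17 from 14.7 to 1.65 and RPA34 from 16.6 to 2.67 rescaled TPM. There is 1 library at each time, so these steps have no replicate check, and that of cox4Δ coincides with the change of code letter in the labels.

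RPO31 did not take part in either step. In the NADH dehydrogenase mutant it stood at 9.87, 8.83, 5.51, 3.27 and 2.91 rescaled TPM at 12, 13, 14, 15 and 16 h. In cox4Δ it went from 7.10 to 6.41 between 13 and 14 h and was at 3.14 at 16 h. Its decline was thus spread over several hours in both mutants.

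A partial return followed in cox4Δ. Comparing 28 to 58 h (n = 5) with 18 to 24 h (n = 4), 9 of 31 members were called higher there, against 8.23% of all genes. They were RPA12 (1.96 ± 0.53, adjusted p = 0.0061), RPA34 (1.52), RPO26 (1.45, adjusted p = 0.0028), RPB11 (1.40, adjusted p = 0.0037), RPC19 (1.27), RPB8 (1.16), RPC11 (1.09), RPC40 (1.05) and RPC10 (1.04). Scaled by the median of ratios, RPA12 alone passed, against 1.19% of genes, and with 18, 20, 22 or 38 h left out the count was 4. In the same comparison 0 members were called higher in wild type and in the NADH dehydrogenase mutant, against 0.192% and 0.332% of all genes, with 0 and 3 at an unadjusted p under 0.05 and 1 and 3 when scaled by the median of ratios. No share of all genes is given for these unadjusted counts, so they cannot be set against other genes. Whether strains differ in this return was not tested. This comparison was chosen after seeing the data.

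As a share of its own early mean, the median polymerase I member of cox4Δ stood at 7.71% at 18 to 24 h and 21.9% at 28 to 58 h. In the NADH dehydrogenase mutant these were 8.77% and 16.3%, and in wild type 22.7% and 29.9%. For polymerase II they were 33.4% and 69.9% in cox4Δ, 36.1% and 53.1% in the NADH dehydrogenase mutant and 71.3% and 71.9% in wild type. The median polymerase III member stood at 14.4% and 26.0%, at 16.3% and 23.7%, and in wild type at 63.2% and 60.2%.

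Members varied in how closely they followed the rest of the set over the 24 times of a strain, given here as a description with no test, because times of a strain may share a culture. In wild type RPB5 and RPC10 followed the median of the other members most closely, with a Spearman coefficient of 0.91 each. RPA14 ran opposite (-0.73), and RPC37 (-0.29), RPO41 (-0.26), RPO31 (-0.08) and RPB4 (-0.01) did not follow it. In the mutants RPO31 (0.75 and 0.84), RPC37 (0.66 and 0.84) and RPA14 (0.64 and 0.70) ran with the other members, and RPB4 had -0.37 in the NADH dehydrogenase mutant and -0.57 in cox4Δ.

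Set beside the promoters printed above, the 14 members with both PAC core and RRPE core had 11 called lower against late wild type in the NADH dehydrogenase mutant, and the other 17 members had 5, with medians of -1.27 and -0.54, beside 29.4% of all genes called. In cox4Δ the counts were 9 and 2, with medians of -1.29 and -0.49, beside 26.3% of all genes. Scaled by the median of ratios, the counts were 4 and 1 in the NADH dehydrogenase mutant (medians -0.68 and 0.12) and 3 and 0 in cox4Δ (medians -0.72 and 0.13), beside 7.42% and 7.35% of all genes. For wild type late against early no such division was seen. There 7 of 14 and 9 of 17 were called lower, beside 14.7% of all genes, with medians of -0.97 and -1.03. The 14 are all subunits of polymerases I and III, so the words and the enzyme largely go together. RPC31, RPC17 and RPC11 of polymerase III lack the pair, and all were called lower in the NADH dehydrogenase mutant. In cox4Δ RPC31 and RPC11 were called, whereas RPC17 and, with the pair, RPC25 were not. RPA12 of polymerase I lacks the pair and was not called in either mutant against late wild type. The parts of words and enzyme were not tested. RPA12, with neither word, fell with its class, and RPA14, with both, did not fall in wild type.

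RET1, the second largest subunit of polymerase III, was not called in either mutant. It averaged 12.9 ± 3.1 rescaled TPM (SD, n = 7) in early and 13.4 ± 3.5 (n = 9) in late wild type, 11.0 ± 2.8 in the late NADH dehydrogenase mutant and 10.3 ± 2.8 in late cox4Δ. Its differences from late wild type were -0.26 ± 0.13 (adjusted p = 0.064) and -0.36 ± 0.13 (adjusted p = 0.012), where the other 9 subunits lay between -0.79 and -2.15. The difference between RET1 and those subunits was not tested.

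Of 49 other genes of polymerase transcription, 2 were called higher in late than in early wild type, beside 18.4% of all genes, and 1 lower, beside 14.7%. Those higher were RRN10 of the upstream activating factor of polymerase I (1.12, adjusted p = 3.7e-08) and IWR1, a nuclear import factor of polymerase II (1.63, adjusted p = 1.3e-08), and the lower one was RRN9 of the same activating factor (-1.11, adjusted p = 4.1e-05). RRN3, the initiation factor that binds polymerase I, averaged 12.1 ± 1.8 rescaled TPM (SD, n = 7) early and 24.0 ± 4.0 (n = 9) late (0.92 ± 0.14, adjusted p = 5.8e-08, below 2-fold), while 6 of the 7 polymerase I subunits fell. MAF1, the repressor of polymerase III, had a difference of 0.57 (adjusted p = 0.0076) and BRF1, the polymerase III initiation factor, 0.34, neither called.

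Against late wild type 16 of the 49 factors were called lower in the NADH dehydrogenase mutant and 14 in cox4Δ, beside 29.4% and 26.3% of all genes, and 0 were called higher in either. Their medians were -0.76 and -0.80, beside -0.65 and -0.61 over all genes. When the late-early change of a mutant was set against that of wild type, 18 of the 49 were called lower in the NADH dehydrogenase mutant and 21 in cox4Δ, beside 33.5% and 26.1% of all genes. These counts were 1 and 0 when scaled by the median of ratios, beside 8.43% and 8.2%. RRN3 differed by -1.14 (adjusted p = 3.1e-12) and -1.26 (adjusted p = 1.8e-13), and MAF1 by -0.93 and -0.80. BRF1 averaged 8.08 ± 1.6 and 7.66 ± 1.7 rescaled TPM in the mutants against 17.3 ± 4.0 in late wild type (adjusted p = 1.3e-09 and 2.3e-10). The lowest in the NADH dehydrogenase mutant were DST1, the elongation factor TFIIS (-1.65), TFB4 of TFIIH (-1.44) and RTP1, which acts in nuclear import of polymerase II (-1.41). In cox4Δ they were NPA3, an assembly factor of polymerase II (-1.45), the elongation factor SPT5 (-1.30) and DST1 (-1.30). Scaled by the median of ratios, 1 factor, DST1, stayed called in the NADH dehydrogenase mutant and 0 in cox4Δ.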

How the data were processed

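RNA of 72 yeast samples, 3 strains at 24 times, was sequenced. Per the labels' protocols, total RNA from hot acidic phenol was depleted of ribosomal RNA and made into stranded TruSeq libraries. The deposited values are TPM per gene. Per the submitters' processing notes, Salmon 0.9.1, bcl2fastq 2.20.0.422 and build sacCer3 were used; annotation and strand setting were not given in the sources used here. How reads of overlapping or antisense genes were divided is thus unknown. Depth is unknown, so no counting interval was computed.

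TPM were rescaled to a common total of nuclear protein-coding genes, because 23 mitochondrial and plasmid entries held 0.147% to 0.881%. Genes with a mean of at least 1 were kept (5721; 82 left out) and log2(value + 1) was fitted with limma 3.58.1 (R 4.3.3; moderation trended and robust) and Benjamini-Hochberg adjustment over all genes. Changes over time came from 9 strain and window means (63 residual degrees of freedom). Strains were compared with the time as a block (42 degrees of freedom), since the labels give the same times in each strain. A 4-window model (60 degrees of freedom) served the comparison within the late window. Calls need an adjusted p under 0.05 and at least 2-fold; all tests are 2-sided. The fit was tested on simulated data. Levels, ratios and promoter words were tabulated in Python 3.11.15 with pandas 2.3.3.

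The members and lists were chosen with earlier results of these data known. All members are accounted for. Window values are given for the 2 largest catalytic subunits of polymerases I and II, RPO31, RPA12, RPB9, RPC11, the shared subunits and RPO41. With them come the 3 highest and 3 lowest called in a comparison. Other members are given by counts and ranges or as exceptions chosen after their values were seen. RET1, outside the name rule, is given by means and SD. Alternatives changed the pseudocount, filter, scaling, fold minimum, windows, moderation, block, gene length trend and promoter window, and left out each time. Gene positions and promoters are from the R64 assembly of RefSeq. Protein sequences were not analysed here.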

Additional observations from a re-analysis of the deposited data

Results flagged for a closer look

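In 13 of 279 windows of a member in a strain, 1 time lay far from the others, and chance gives about 1 in 20. In wild type these were, in rescaled TPM, RPA14 at 6 h (83.0), RPB3 at 7 h (43.6) and RPC31 at 8 h (14.6) in the early window, RPA190 at 15 h (3.94) in the middle window, and RPB2 at 58 h (10.4), RPB3 at 32 h (12.5) and RPC25 at 46 h (25.6) in the late window. Of these only RPC25 was above the other times of its window. In the early window of the NADH dehydrogenase mutant RPA12 was low at 8 h (58.5) and RPB5 high at 4 h (127). In that of cox4Δ RPB2 at 0 h (20.0), RPC25 and RPC19 at 5 h (33.9 and 70.5) and RPB8 at 7 h (262) were low.

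The change from early to late differed between a mutant and wild type for all 9 polymerase III members, by the limma test of that difference. RET1 is not among them. The same call, lower, was made for 33.5% of all genes in the NADH dehydrogenase mutant and 26.1% in cox4Δ. Fewer members passed when scaled by the median of ratios. In the NADH dehydrogenase mutant the excess log2 change was -2.30 for RPC37, -1.79 for RPC31, -1.77 for RPO31, -1.64 for RPC82, -1.53 for RPC34, -1.46 for RPC53, -1.27 for RPC17, -1.22 for RPC25 and -1.22 for RPC11. Of polymerase I and shared subunits it was -1.48 for RPA135, -1.35 for RPA14, -1.28 for RPA43, -1.68 for RPC19, -1.11 for RPC40 and -1.09 for RPC10. In cox4Δ it was -2.18 for RPC37, -1.89 for RPC34, -1.59 for RPC31, -1.55 for RPC82, -1.44 for RPC11, -1.43 for RPC53, -1.36 for RPO31, -1.16 for RPC17 and -1.04 for RPC25. It was -1.18 for RPA14, -1.13 for RPA135, -1.02 for RPA43, -1.77 for RPC19, -1.20 for RPC40, -1.11 for RPC10 and -1.02 for RPB10. Both mutants are set against the same wild-type libraries.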

How the results depend on the processing

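Counts of called members below are given as reported and then under an alternative, and the cause of a change was not tested. Where no share of all genes stands beside a count, that count cannot be set against other genes under the same alternative. With a pseudocount of 5 the count lower went from 18 to 11 for wild type middle against early, from 16 to 8 and from 11 to 6 for the NADH dehydrogenase mutant and cox4Δ against late wild type, from 15 to 9 and 16 to 8 for the differences of changes, and from 1 to 0 for the NADH dehydrogenase mutant in the middle window, while the count higher in cox4Δ at 28 to 58 h went from 9 to 4. With a pseudocount of 0.1 the middle-window counts were 4 and 1 (as reported 1 and 0). Scaling by the median of ratios gave 5 and 3 against late wild type, 4 and 5 for the differences of changes, 0 for the NADH dehydrogenase mutant in the middle window and 1 for cox4Δ at 28 to 58 h. On that scale the class medians against late wild type in the NADH dehydrogenase mutant and cox4Δ were -0.46 and -0.20 for polymerase I, 0.22 and 0.34 for polymerase II, -0.85 and -0.88 for polymerase III, -0.70 and -0.69 for those shared by I and III and 0.12 and 0.13 for those in all enzymes. The polymerase II and commonly shared medians thus change sign with the scaling. Without a fold minimum 2 members were higher in late wild type (35.8% of all genes), 26 and 24 lower against late wild type (68.6% and 67.2%), 19 and 8 lower (47.0% and 27.7%) and, in cox4Δ, 1 higher (2.31%) in the middle window, and 23 for the difference of changes in the NADH dehydrogenase mutant (61.7%). With the late window from 24 h the difference of changes in cox4Δ gave 10. The strain comparisons without the replicate block, that is without pairing libraries by time, gave 16, 11, 15, 16, 1 and 0, as with it. Leaving out each time in turn gave 0 to 6 for the NADH dehydrogenase mutant in the middle window (0 without 13, 14 or 15 h, 4 without 9 or 11 h, 6 without 10 h) and 4 to 8 for cox4Δ at 28 to 58 h (5 without 46 h). The other ranges were 13 to 17 and 14 to 19 for wild type late and middle against early, 26 and 25 to 26 for the mutants late against early, 14 to 18 and 10 to 13 against late wild type, and 14 to 16 and 13 to 17 for the differences of changes. Of 2505 alternative values of named members 133 were no longer past the threshold and 0 reversed. With 250 bases only, the stress response element count went from 7 to 5 members. TPM are shares of a pool, so absolute amounts are not measured, and depth sets an unknown limit on the low members.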
